A study of Mus musculus with 9 samples.

Results

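The replication-dependent histone genes supply the bulk of the histone protein that packages newly copied DNA. They were taken here as every row of the expression table whose GENCODE M21 gene symbol begins with Hist1h, Hist2h, Hist3h or Hist4h, which gave 59 of 16428 genes. Of these, 5 belong to the linker histone H1, 16 to H2A, 15 to H2B, 11 to H3 and 12 to H4. By the cluster number in the symbol, 49 belong to cluster 1 on mouse chromosome 13 and 8 to cluster 2 on chromosome 3. Hist3h2a alone stands for cluster 3 on chromosome 11 and Hist4h4 alone for cluster 4 on chromosome 6. Of the 49, the processed pseudogene Hist1h2al lies apart from the others, at 51202727 to 51203065 on chromosome 13. The annotation holds 70 such symbols, and the other 11 were not analysed here. All 59 genes had a mean normalized read count of at least 10 over the 9 libraries and so entered the test. All libraries came from mouse embryonic fibroblasts of the genotype CARM1f/f ER-Cre, in which loxP sites flank part of Carm1 and Cre recombinase is fused to the estrogen receptor, and RNA was taken after 6 days. KO cells received 2 uM 4-hydroxytamoxifen (4-OHT), which switches the recombinase on. CARM1i cells received 1 uM TP-064, an inhibitor of CARM1, an arginine methyltransferase of histones and transcriptional coactivators. WT cells carried the same floxed gene and recombinase and had no treatment. There were 3 libraries per group. No group had 4-OHT without the floxed gene and none was labelled as vehicle, so the deletion and 4-OHT cannot be told apart.

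Core histones H2A, H2B, H3 and H4 form the protein spool of the nucleosome, and H1 binds the DNA that links one nucleosome to the next. Most of their genes have no introns, sit in dense clusters and are active chiefly in S phase, when DNA is replicated. Their messenger RNAs usually end in a conserved stem-loop in place of a poly(A) tail, and the stem-loop binding protein SLBP guides their processing, translation and decay. Some of these genes can also give a polyadenylated transcript that runs past the stem-loop. The libraries were made from poly(A) RNA, so the counts cover an unknown share of each gene's transcripts.

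Recovered reads ran from 28657018 to 35842771 per library. Carm1 itself had normalized read counts of 794, 711 and 769.8 in KO libraries, 1112, 1072 and 986 in CARM1i libraries and 1079, 1143 and 1091 in WT libraries. Its log2 fold change, given here and throughout with its standard error, was -0.54 ± 0.06 in KO against WT (limma adjusted p = 5.49e-07) and -0.06 ± 0.06 in CARM1i against WT (adjusted p = 0.496). Counts of the whole gene include reads outside the floxed part, which do not check the deletion. All 8 fibroblast markers were in the table, and their summed count was 181218 to 191508 in KO libraries, 213699 to 237066 in CARM1i libraries and 245016 to 251921 in WT libraries. Markers of other cells were low, with 2 of 4 macrophage markers summing to 107 to 189 in KO, 110.3 to 133 in CARM1i and 87.9 to 114 in WT libraries. Of 5 epithelial markers only Krt18 was analysed here, at 91.9 to 126 in KO libraries, 32.4 to 43.8 in CARM1i libraries and 23.3 to 48 in WT libraries, and no skeletal muscle marker of 3 was. The 4 endothelial markers summed to 288 to 341 in KO, 239 to 262 in CARM1i and 264 to 299.7 in WT libraries, and 2 of 3 neural markers to 194 to 222 in KO, 212 to 287 in CARM1i and 273 to 289.8 in WT libraries. In KO 6 of the 8 fibroblast markers were lower, Thy1 was higher and 1 was not called, at a limma adjusted p of 0.05. In CARM1i 3 were lower, Thy1 was higher and 4 were not called. Shares of all genes tested were 20.5% lower and 21.4% higher in KO, and 8.59% and 10.5% in CARM1i. Among the other markers, the KO calls were Cd68 (0.98 ± 0.27, with overlapping libraries), Krt18 (1.58 ± 0.25) and Tubb3 (-1.59 ± 0.19). The part of these markers in the histone results was not tested. CARM1i replicate 3 stood apart from its group, with a chi-square per gene over all genes tested of 7.98 and 8.57 to the other CARM1i libraries, while the other pairs within a group ran from 2.49 to 5.62. The labels do not state whether each replicate was a culture of its own. The p-values therefore cover the variation among the 9 libraries, which may be technical.

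The stem-loop was looked for in the annotated 3′ UTRs as a perfectly paired 6-base stem that begins GG and ends in T, around a 4-base loop that begins TT. It was found in 38 of the 59 genes. In 13 of the others the model ends at the stop codon or within 3 bases of it, and Hist1h2al, a processed pseudogene, has no coding annotation. The sequences below are given 5′ to 3′ on the coding strand from GENCODE M21 transcripts of the mm10 build, with the 16 bases of the stem and loop in capitals, because the stems found in H4 genes differed from those of the other classes.
Hist1h1c: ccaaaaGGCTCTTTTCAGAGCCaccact
Hist1h2ac: cccaaaGGCTCTTTTCAGAGCCcccact
Hist2h2ac: caaaaaGGCTCTTTTTAGAGCCaccaaa
Hist1h2bh: cccaaaGGCTCTTTTCAGAGCCactcaa
Hist3h2a: accaaaGGCTCTTTTCAGAGCCacccac
Hist2h3c2: cacaaaGGCTCTTTTCAGAGCCaccaca
Hist1h3c: aaaaaaGGCTCTTTTAAGAGCCacctaa
Hist1h4d: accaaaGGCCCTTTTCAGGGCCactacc
Hist1h4i: cttaaaGGCCCTTTTTAGGGCCaccaca
Hist1h4b: acaaaaGGTCCTTTTCAGGACCactcac
The form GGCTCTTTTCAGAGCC was the commonest, in 22 genes of the H1, H2A, H2B and H3 classes. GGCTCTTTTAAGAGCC was found in 2 H2B and 3 H3 genes, and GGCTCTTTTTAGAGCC in Hist2h2ac. The stem GGCCCT closed with AGGGCC was found in 8 H4 genes, 6 with the loop TTTC and 2 with TTTT, and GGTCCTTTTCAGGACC in another 2 H4 genes. The 38 genes with a match had a median log2 fold change of -1.67 in KO against WT and the 21 without one -1.89. Most of the 21 are the 13 genes with almost no annotated 3′ UTR to search, whose median was -1.94. The 2 medians therefore do not compare genes that have a stem-loop with genes that lack one. Hist3h2a and Hist2h3c2, which were not lower in KO, carry the same commonest form as Hist1h2bh, the lowest H2B gene in KO.

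The main comparison asked how the family behaves after 4-OHT in floxed cells. Summed over the 59 genes, the normalized read count was 41141, 39025 and 39875 in KO libraries, 79566, 87031 and 72866 in CARM1i libraries, and 117730, 119984 and 107982 in WT libraries. The 3 groups did not overlap, with KO at 34.7% and CARM1i at 69.3% of the WT mean. As a share of all recovered reads the family took 0.126 to 0.131% in KO, 0.234 to 0.281% in CARM1i and 0.352 to 0.392% in WT libraries. In KO against WT, 54 genes were lower, 1 was higher and 4 did not pass, at a Benjamini-Hochberg adjusted p of 0.05 in limma. Among all 14560 genes tested, 41.9% were called, 20.5% lower and 21.4% higher. In the same comparison 52 of the 59 were at least 2-fold lower, against 2.36% of all genes, and 54 had every KO library below every WT library, against 25.9%. The median log2 fold change of the family was -1.76, and that of all tested genes was -0.004. In bulk RNA, fewer cells in S phase and less histone RNA per cell cannot be told apart.

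In CARM1i against WT, 52 of the 59 genes were lower and 7 did not pass, against 8.59% of all genes lower and 10.5% higher. None was higher in limma, edgeR or DESeq2 at an adjusted p of 0.05. At an unadjusted p of 0.05, 0 were higher in limma, 1 in edgeR (Hist2h3c2) and 0 in DESeq2. The median log2 fold change was -0.58, no gene was 2-fold lower, against 0.179% of all genes, and 47 genes had all CARM1i libraries below all WT libraries, against 16.7% of all genes. Without CARM1i replicate 3, 48 genes were lower. The direct comparison of CARM1i with KO found 52 genes higher and 7 that did not pass, against 23.6% of all genes called and 12.1% higher, with a median of 1.17. None was lower in limma, edgeR or DESeq2, and none at an unadjusted p of 0.05 in any of them. Without CARM1i replicate 3, 53 genes were higher. In this comparison 52 genes had all CARM1i libraries above all KO libraries, against 18.3% of all genes, and 1 (Hist2h2aa2) had them all below, against 18.6%. The KO and CARM1i comparisons share their WT libraries.

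**Figure D1:**
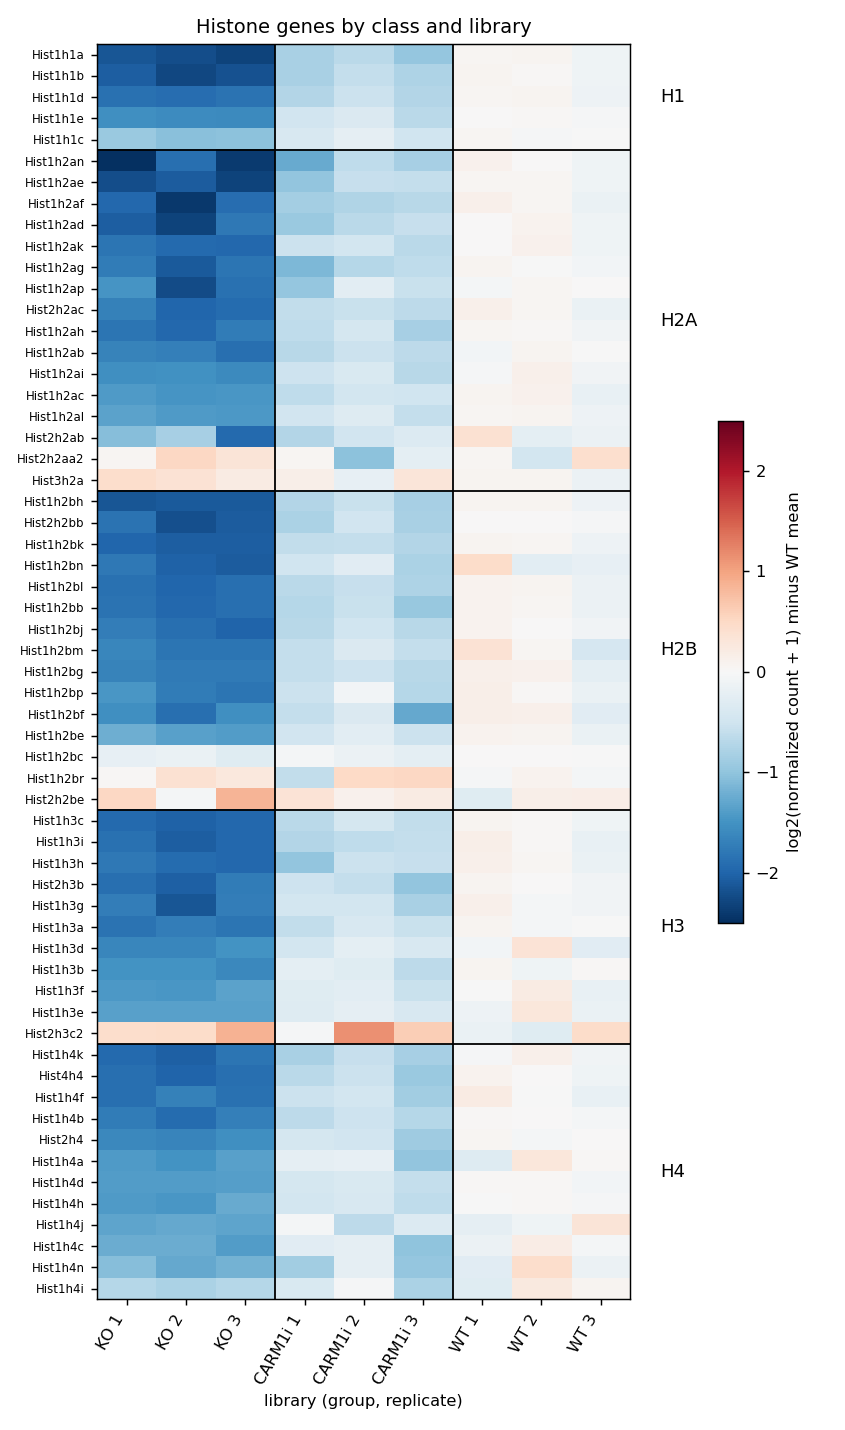
Rows are the 59 histone genes, grouped by class and ordered by their KO against WT change, columns are the 9 libraries, and colour is log2(normalized count + 1) minus the gene's WT mean. The KO columns are the darkest blue in most rows, the CARM1i columns are paler, and Hist3h2a, Hist2h2aa2, Hist1h2br, Hist2h2be and Hist2h3c2 are the rows without blue in KO.

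The median change of every class was below 0 in both comparisons with WT and farther from 0 in KO. In KO against WT the median log2 fold change was -1.88 for H1, -1.86 for H2A, -1.76 for H2B, -1.79 for H3 and -1.40 for H4. The lower genes numbered 5 of 5, 14 of 16, 13 of 15, 10 of 11 and 12 of 12 in the same order of classes. In CARM1i against WT the medians were -0.67, -0.60, -0.60, -0.52 and -0.55, with 5, 13, 13, 10 and 11 genes lower. Over all genes tested, 20.5% were lower in KO and 8.59% in CARM1i. Summed counts in KO were 35.6% of WT for H1, 31.4% for H2A, 35.8% for H2B, 32.3% for H3 and 36.5% for H4, and in CARM1i they were 69.1, 67, 68.5, 72.2 and 69.3% of WT. The H4 class had the median nearest to 0 in KO. The H4 share of all histone counts was 25.2 ± 0.69% in KO, 23.9 ± 1.22% in CARM1i and 23.9 ± 0.97% in WT libraries (SD, n = 3), and the KO and WT ranges overlapped. The H2A share was 12.5 ± 0.26% in KO and 13.8 ± 0.089% in WT libraries, and the H3 share was 15.9 ± 0.31% in KO and 17.1 ± 0.67% in WT libraries, both without overlap. In CARM1i libraries the H2A share was 13.4 ± 0.68% and the H3 share 17.8 ± 0.36%, and both ranges overlapped those of WT.

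**Figure D2:**
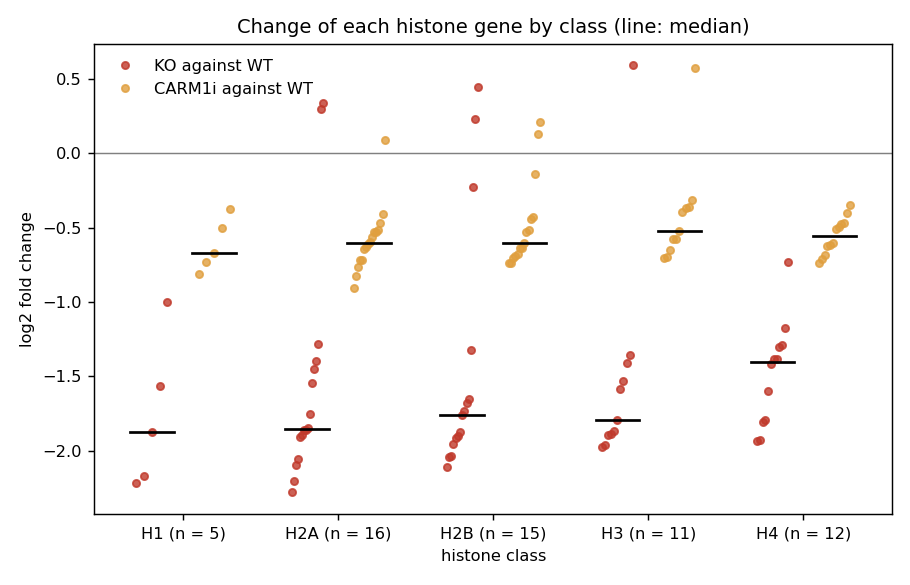
Each point is a gene, placed by class along the horizontal axis and by its log2 fold change on the vertical axis, in red for KO against WT and in orange for CARM1i against WT, with a line at the class median. The red medians run from -1.88 to -1.40 and the orange ones from -0.67 to -0.52.

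All 5 linker histone genes fell in both comparisons. The sharpest falls in KO were those of Hist1h1a and Hist1h1b, which encode the H1.1 and H1.5 subtypes. Hist1h1a (ENSMUSG00000049539.3, chr13:23763666-23764406) had 212, 199.6 and 186 in KO libraries, 531, 583 and 476 in CARM1i libraries and 962, 972 and 859.7 in WT libraries. Its log2 fold change was -2.22 ± 0.08 in KO against WT (limma adjusted p = 8.74e-13) and -0.81 ± 0.08 in CARM1i against WT (adjusted p = 2.48e-06). Every KO library lay below every CARM1i library, and these below every WT library. Hist1h1b (chr13:21779883-21780625) had 1283, 1113 and 1188 in KO libraries, 3043, 3541 and 3123 in CARM1i libraries and 5626, 5509 and 4977 in WT libraries, again with no overlap of the 3 groups. It changed by -2.17 ± 0.06 in KO and -0.73 ± 0.06 in CARM1i.

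Hist1h1c, which encodes the H1.2 subtype, took the most counts of the 59 genes, not corrected for length, and had the smallest change among the H1 genes. It had 5599.7, 5155 and 5223 in KO libraries, 8104, 9072 and 7577 in CARM1i libraries and 11026, 10372 and 10559 in WT libraries, a log2 fold change of -1.0004 ± 0.05 in KO (limma adjusted p = 2.93e-11) and -0.37 ± 0.05 in CARM1i (adjusted p = 4.21e-05). The groups did not overlap. Hist1h1d, for H1.3, changed by -1.88 ± 0.05 in KO and -0.67 ± 0.05 in CARM1i, and Hist1h1e, for H1.4, by -1.56 ± 0.05 and -0.50 ± 0.05. Hist1h1c held 48.9 ± 0.49% of H1 counts in KO, 39.1 ± 0.22% in CARM1i and 34.9 ± 1.24% in WT libraries. Hist1h1b held 11 ± 0.42% in KO, 15.3 ± 0.64% in CARM1i and 17.6 ± 0.51% in WT libraries (SD, n = 3). Hist1h1e overlaps Hist1h2be on the same strand, so reads in the overlap cannot be assigned to either.

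**Figure D3:**
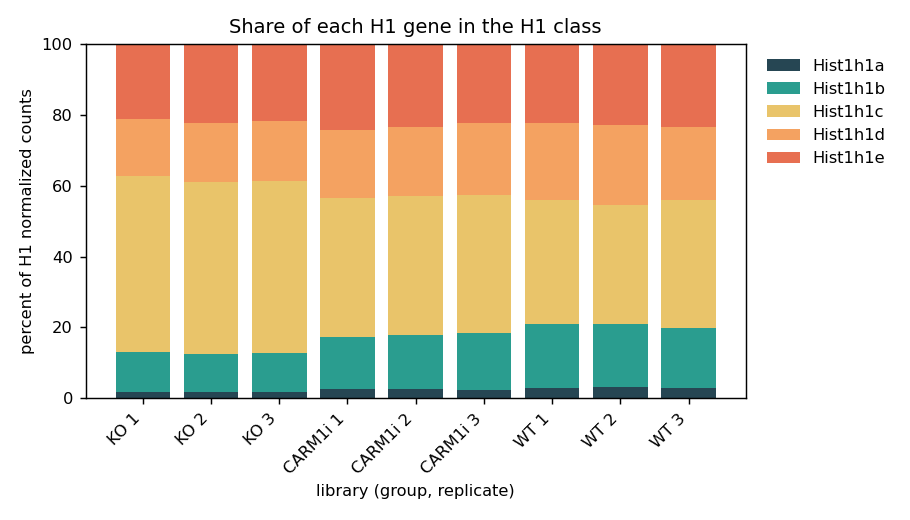
Stacked bars give, for each of the 9 libraries, the percent of H1 normalized counts in each of the 5 H1 genes. The Hist1h1c segment is 48.6 to 49.5% in KO, 38.8 to 39.2% in CARM1i and 33.6 to 36% in WT libraries.

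Among the 16 H2A genes 14 fell in KO, with log2 fold changes of -2.28 to -1.28. Hist1h2an had the largest fall of the family, with 52.9, 84.7 and 59.1 in KO libraries, 132, 202 and 178 in CARM1i libraries and 339, 317 and 294 in WT libraries (-2.28 ± 0.17 in KO, limma adjusted p = 5.96e-09, and -0.91 ± 0.17 in CARM1i, adjusted p = 0.001). Its 3 groups did not overlap. Of its 50-base words, 85.8% also occur in other transcripts of the family, so its own value is uncertain where reads could be split between copies. This limit holds for many members. In 28 of the 59 genes more than 50% of the words are shared, and the median share is 49.5%. It is 87.6% in Hist1h3i, 79.7% in Hist2h3b, 73.4% in Hist1h3e and 67.6% in Hist1h2al. The H2A gene with the next largest fall, Hist1h2ae, was at -2.20 ± 0.10 in KO and -0.72 ± 0.10 in CARM1i. The H2A rows with the most counts were Hist1h2al, annotated as a processed pseudogene, Hist1h2ak and Hist1h2ab. Hist1h2al had 1279, 1221 and 1203 in KO libraries, against 3382, 3407 and 2991 in WT libraries (-1.40 ± 0.06), Hist1h2ak had 754, 698 and 687 in KO libraries, against 2686, 2865 and 2478 in WT libraries (-1.91 ± 0.06), and Hist1h2ab had 648, 631 and 558 in KO libraries, against 1978, 2151 and 2061 in WT libraries (-1.75 ± 0.06). All 3 fell in KO without overlap. In CARM1i their changes were -0.47, -0.56 and -0.63, and all passed.

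Of the 16 H2A genes, 3 did not pass in CARM1i against WT. Hist2h2ab, of cluster 2, had 35.7, 42.3 and 19.1 in KO libraries, 45.6, 54.3 and 59.8 in CARM1i libraries and 99.9, 64.6 and 68.4 in WT libraries. It fell in KO (-1.28 ± 0.27, limma adjusted p = 0.000726), and in CARM1i the value was -0.52 ± 0.27 (adjusted p = 0.199). The other two, Hist2h2aa2 and Hist3h2a, are described with clusters 2 and 3. All 16 H2A genes have an annotated model on the opposite strand. Whether the counting used strand is not given in the sources used here.

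Of the 15 H2B genes 13 fell in KO. Hist1h2bh (chr13:23541714-23543392), with the largest fall of the class, had 557, 566 and 570.4 in KO libraries, 1476, 1648 and 1379 in CARM1i libraries and 2540.1, 2556 and 2235 in WT libraries, with no overlap between groups (-2.11 ± 0.06 in KO, limma adjusted p = 6.57e-14, and -0.70 ± 0.06 in CARM1i, adjusted p = 5.29e-07). Hist1h2bb had 712, 657 and 692 in KO libraries, against 2741, 2664 and 2308 in WT libraries (-1.90 ± 0.08), and Hist1h2be had 1149, 1048 and 1013 in KO libraries, against 2863, 2825 and 2374 in WT libraries (-1.32 ± 0.07). Both fell in CARM1i too, with changes of -0.74 and -0.43 on the log2 scale.

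Hist1h2bc had the smallest fall in the family. It had 2335, 2374 and 2171 in KO libraries, 2581, 2432 and 2275 in CARM1i libraries and 2697, 2693 and 2643 in WT libraries. All KO libraries lay below all WT libraries, and the log2 fold change was -0.22 ± 0.05 (limma adjusted p = 0.000718). In CARM1i it was -0.14 ± 0.05 (adjusted p = 0.0395), a call that was lost without any 1 of the WT libraries (adjusted p of 0.056 to 0.116), without CARM1i replicate 2 or 3, and without the intensity trend (adjusted p = 0.144). Between CARM1i and KO its value was 0.08 ± 0.05 (adjusted p = 0.229), and without CARM1i replicate 3 it passed, at 0.13 (adjusted p = 0.0375). Hist1h2bc made up 29.8 ± 1.36% of H2B counts in KO, 16.5 ± 1.28% in CARM1i and 12.5 ± 1.02% in WT libraries (SD, n = 3), without overlap. Its model has 2 exons and a 3′ UTR of 742 bases in which no stem-loop was found.

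H2A and H2B genes often lie head to head, with their starts close together on opposite strands, and 10 such pairs had starts 176 to 302 bases apart. In 7 of them both partners fell in KO by more than 1.5 on the log2 scale. Hist1h2ag and Hist1h2bj changed by -1.90 and -1.87, and Hist1h2ak and Hist1h2bn by -1.91 and -1.96. Of these 7, Hist1h2an and Hist1h2bp were the farthest apart, at -2.28 and -1.68. In the other 3 pairs the H2A partner fell, and the H2B partner fell little or did not pass. Hist1h2ac fell by 1.45 beside Hist1h2bc at -0.22, Hist1h2ap had -1.86 beside Hist1h2br at 0.23, and Hist2h2ac had -1.86 beside Hist2h2be at 0.44. In CARM1i against WT these 3 pairs were at -0.53 and -0.14, at -0.60 and 0.13, and at -0.61 and 0.21. Hist1h2br and Hist2h2be had low counts, with means of 26.2 ± 3.3 and 48.6 ± 14.9 in KO libraries and 22.1 ± 1.2 and 34.7 ± 6.22 in WT libraries (SD, n = 3). The difference between partners was not tested.

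**Figure D4:**
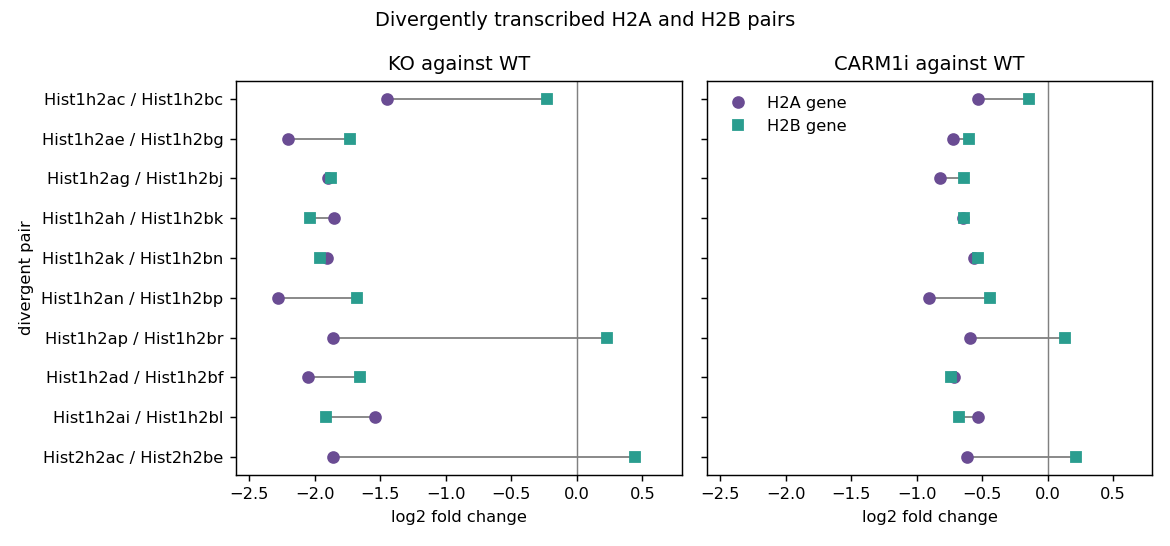
Each row is a divergent pair, with the log2 fold change of the H2A gene as a circle and of the H2B gene as a square, for KO against WT on the left and CARM1i against WT on the right. The pairs Hist1h2ac with Hist1h2bc, Hist1h2ap with Hist1h2br and Hist2h2ac with Hist2h2be have the widest gaps in KO, with H2A minus H2B differences of -1.23, -2.09 and -2.31.

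Promoter windows are shown for Hist1h2ac and Hist2h2ac, from the wide-gap pairs, and for Hist1h1b, because between them they carry all 4 motifs searched. They need not be typical of their classes. The RefSeq promoter table (build GRCm38.p6) gave a window of 300 bases, 250 before and 50 after the start, for 52 of the 59 genes. Each sequence is on the gene's own strand, here the minus strand for all 3, and capitals mark matches on either strand to 4 motifs. These are the CCAAT box, the TATA box (TATAAA), the octamer of H2A and H2B promoters (ATTTGCAT) and the AC box of H1 promoters (AAACACA). The windows of Hist1h2ac and Hist2h2ac span the whole gap to the partner.
Hist1h2ac, chr13:23683910-23684209: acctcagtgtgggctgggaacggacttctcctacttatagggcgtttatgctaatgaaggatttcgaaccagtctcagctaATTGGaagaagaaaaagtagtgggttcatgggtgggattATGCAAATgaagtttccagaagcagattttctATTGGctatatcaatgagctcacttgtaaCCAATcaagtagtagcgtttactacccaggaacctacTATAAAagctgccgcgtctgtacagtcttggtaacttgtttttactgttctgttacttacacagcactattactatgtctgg
Hist2h2ac, chr3:96220831-96221130: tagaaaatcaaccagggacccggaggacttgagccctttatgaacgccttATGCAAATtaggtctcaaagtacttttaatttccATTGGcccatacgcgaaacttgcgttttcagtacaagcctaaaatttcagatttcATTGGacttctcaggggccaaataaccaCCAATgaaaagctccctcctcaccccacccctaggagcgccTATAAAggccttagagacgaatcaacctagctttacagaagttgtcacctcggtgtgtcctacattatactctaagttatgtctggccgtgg
Hist1h1b, chr13:21780576-21780875: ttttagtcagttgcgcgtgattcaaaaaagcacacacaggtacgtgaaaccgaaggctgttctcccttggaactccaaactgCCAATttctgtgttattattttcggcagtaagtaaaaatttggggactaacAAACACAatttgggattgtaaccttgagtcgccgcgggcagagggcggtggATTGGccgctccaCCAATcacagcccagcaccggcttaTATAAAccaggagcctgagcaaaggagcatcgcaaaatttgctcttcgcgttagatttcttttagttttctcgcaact
The letters CCAAT were found in all 5 H1, 14 H2A, 13 H2B and 9 H3 windows and in 3 of 11 H4 windows, against 37.4% of 32851 windows of all genes. ATTTGCAT was found in 6 of 14 H2A and 5 of 13 H2B windows and in no H1, H3 or H4 window, against 1.74% of all. AAACACA was in 4 of 5 H1 windows, 1 H2A and 1 H2B window, against 7.18%. TATAAA was in 4 of 5 H1, 9 of 14 H2A, 6 of 13 H2B, 4 of 9 H3 and 7 of 11 H4 windows, against 13.6%. Windows of head-to-head partners can cover much of the same DNA, as for Hist1h2ae (chr13:23571171-23571470) and Hist1h2bg (chr13:23571150-23571449). A match in such a shared stretch counts in both the H2A and the H2B class, so the 2 class counts are not independent. A match is a run of letters and does not show that a factor binds there.

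All 10 cluster 1 and cluster 2 H3 genes other than Hist2h3c2 fell in both comparisons. Hist1h3f, with the highest counts of the class, had 1652, 1621 and 1757 in KO libraries, 3629, 3729 and 3040.3 in CARM1i libraries and 4401, 5119 and 3938 in WT libraries. Its changes were -1.41 ± 0.08 in KO (limma adjusted p = 9.53e-11) and -0.37 ± 0.08 in CARM1i (adjusted p = 0.00251), with no overlap between groups. The CARM1i call was lost without the intensity trend (adjusted p = 0.0737). Hist1h3c had the largest fall of the class, with 603, 571 and 591 in KO libraries, 1456, 1700.2 and 1518 in CARM1i libraries and 2432, 2368 and 2150.2 in WT libraries (-1.97 ± 0.06 in KO and -0.57 ± 0.06 in CARM1i). Hist1h3i changed by -1.96 ± 0.07 in KO and -0.65 ± 0.07 in CARM1i. Hist1h3e was at -1.36 ± 0.08 in KO and -0.31 ± 0.08 in CARM1i, and its CARM1i call (adjusted p = 0.0109) was lost in DESeq2 (adjusted p = 0.0523) and without the intensity trend (adjusted p = 0.127). Without WT replicate 2 the Hist1h3e value in CARM1i was -0.17.

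All 12 H4 genes fell in KO and 11 fell in CARM1i. The one with the most counts, Hist1h4d, had 2356, 2342 and 2388 in KO libraries, 4556, 4753 and 4103 in CARM1i libraries and 6302, 6333 and 5890.4 in WT libraries, a change of -1.39 ± 0.05 in KO (limma adjusted p = 2.10e-13) and -0.47 ± 0.05 in CARM1i (adjusted p = 1.39e-06). Hist1h4h changed by -1.38 ± 0.05 and -0.50 ± 0.05. In both genes the 3 groups did not overlap. Hist1h4k had the largest fall of the class in KO (-1.94 ± 0.07), and Hist1h4f changed by -1.81 ± 0.10. Of the 50-base words of Hist1h4k, 71.5% also occur in other transcripts of the family.

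Some H4 genes varied widely within a group. Hist1h4i had the smallest H4 fall in KO, with 867, 822 and 863 in KO libraries, 1082, 1382 and 819.7 in CARM1i libraries and 1146, 1669.8 and 1479.8 in WT libraries. Every KO library lay below every WT library (-0.73 ± 0.14, limma adjusted p = 0.0003), while CARM1i replicate 3, at 819.7, lay just below the lowest KO library. Its CARM1i call (-0.40 ± 0.14, adjusted p = 0.0498) was lost without CARM1i replicate 3 (-0.21, adjusted p = 0.19), without CARM1i replicate 1, WT replicate 2 or 3 or any 1 of the KO libraries (adjusted p of 0.0628 to 0.244), and also in edgeR (adjusted p = 0.0591) and DESeq2 (adjusted p = 0.209). Hist1h4c had 1611, 1668 and 967 in CARM1i libraries, against 1764, 2224 and 1897 in WT libraries, with CARM1i replicate 3 the low one. Its change was -1.29 ± 0.14 in KO and -0.51 ± 0.14 in CARM1i, and the CARM1i call was lost in DESeq2 (adjusted p = 0.118), without the intensity trend (adjusted p = 0.16) and without WT replicate 2 (adjusted p = 0.0988). Without CARM1i replicate 3 the Hist1h4c value in CARM1i was -0.25. Hist1h4j was the H4 gene that did not pass in CARM1i (-0.35 ± 0.13, adjusted p = 0.0634).

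In cluster 2, 5 of 8 genes fell in KO and 3 did not pass, against 20.5% of all genes lower. Hist2h2bb had 286, 224 and 243 in KO libraries, against 1045, 1034 and 1016 in WT libraries (-2.04 ± 0.09), Hist2h2ac had 429, 353 and 367 in KO libraries, against 1517, 1432 and 1236 in WT libraries (-1.86 ± 0.08) and Hist2h3b had 245, 218 and 269 in KO libraries, against 951, 908 and 856 in WT libraries (-1.89 ± 0.11). Hist2h4 fell to 306, 296 and 325 in KO libraries, against 967, 906 and 939 in WT libraries (-1.60 ± 0.09). These 4 had no overlap between KO and WT, and each also fell in CARM1i, with changes of -0.69, -0.61, -0.70 and -0.60 on the log2 scale. Hist4h4 (chr6:136801553-136804415), the only gene of cluster 4, also fell, with 589, 544 and 586 in KO libraries, 1369, 1491 and 1146 in CARM1i libraries and 2304, 2204 and 2034 in WT libraries (-1.93 ± 0.08 in KO and -0.71 ± 0.08 in CARM1i).

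The genes that were not lower in KO were Hist2h2aa2, Hist2h2be and Hist2h3c2 of cluster 2, Hist1h2br of cluster 1 and Hist3h2a of cluster 3. Hist3h2a (chr11:58954685-58956830), which encodes an H2A, had 214, 203 and 183 in KO libraries, 175, 137 and 196 in CARM1i libraries and 165, 165 and 143 in WT libraries. It was higher in KO by 0.34 ± 0.13 (limma adjusted p = 0.0489), and the KO libraries lay above the WT libraries. This call, close to the threshold, was lost in DESeq2 (adjusted p = 0.0592), rescaled to a common total (adjusted p = 0.0595), with the replicate block (adjusted p = 0.0637), without the intensity trend (adjusted p = 0.0838), and without KO replicate 1 or 2, CARM1i replicate 1 or any 1 of the WT libraries (adjusted p of 0.057 to 0.158). Hist3h2a overlaps Trim17 on the same strand.

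Hist2h2be had 49.7, 33.3 and 63 in KO libraries, 43.5, 37.2 and 39.5 in CARM1i libraries and 27.6, 38.2 and 38.5 in WT libraries, with KO and WT overlapping (0.44 ± 0.25, limma adjusted p = 0.166). Without KO replicate 2 it passed, at 0.69 (adjusted p = 0.0394). Hist2h3c2 had 40.0, 40.3 and 54.4 in KO libraries, 28.3, 65.8 and 44.9 in CARM1i libraries and 25.8, 23.5 and 40.6 in WT libraries (0.59 ± 0.29 in KO, adjusted p = 0.116), and it passed without WT replicate 3, at 0.83 (adjusted p = 0.0446). Hist1h2br had 22.7, 29.2 and 26.7 in KO libraries, 14.2, 31.4 and 32.1 in CARM1i libraries and 21.5, 23.5 and 21.4 in WT libraries (0.23 ± 0.31, adjusted p = 0.593), and Hist2h2aa2 had 17.3, 24.2 and 21 in KO libraries, 17.2, 7.62 and 13.9 in CARM1i libraries and 17.2, 11.7 and 22.5 in WT libraries (0.30 ± 0.36, adjusted p = 0.543). In all 4 the KO and WT libraries overlapped. Of the 9 genes with a mean count under 300, 4 were lower, 1 was higher and 4 did not pass in KO. All 50 genes with higher means were lower. Over all genes tested, 20.5% were lower and 21.4% higher in KO. All 50-base words of Hist2h2aa2, 93.2% of those of Hist1h2br and 63.5% of those of Hist2h3c2 also occur in other transcripts of the family.

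**Figure D5:**
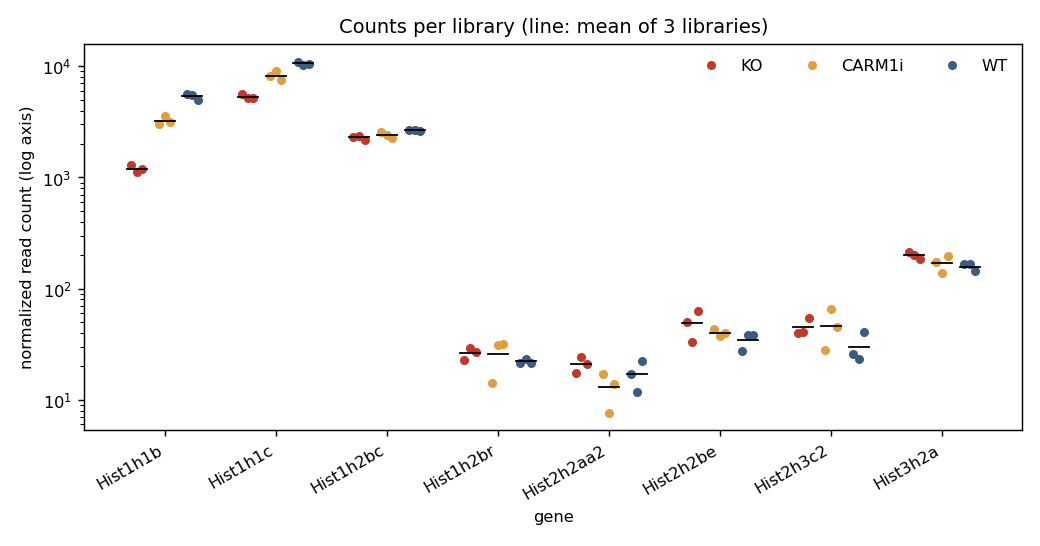
Normalized read counts of 8 genes on a log axis, with 1 point per library in red for KO, orange for CARM1i and blue for WT and a line at the mean of 3. Hist1h1b and Hist1h1c are lowest in KO and highest in WT, Hist1h2bc is between 2171 and 2697 in all 9 libraries, and the 5 genes on the right do not have lower KO means than WT means.

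By position, the 20 genes at 21715763 to 22043676 on chromosome 13 had a median KO change of -1.88 and the 28 genes at 23531050 to 23764406 a median of -1.69. In CARM1i the medians were -0.64 and -0.55. Hist1h2al lies apart, at 51202727 to 51203065. By gene model, the 13 genes whose annotation ends at the stop codon or within 3 bases of it had a KO median of -1.94 and were all lower. Hist1h2al, with no annotated stop codon, was left out of these groups. The 30 other coding genes with a 3′ UTR of under 500 bases had a median of -1.78, with 28 lower. The 15 genes with a 3′ UTR of at least 500 bases had -1.39, with 12 lower, 1 higher and 2 not called. Shares of all genes tested were 20.5% lower and 21.4% higher in KO. Among the 15, Hist1h2bh with 1258 bases (-2.11) and Hist4h4 with 2515 bases (-1.93) had large falls. Hist1h2bc, Hist1h2br, Hist2h2be and Hist3h2a also have a 3′ UTR of at least 500 bases. Within classes, the medians of the group of 15 and the group of 30 were -1.56 and -2.22 in H1 and -0.56 and -1.86 in H2A. They were -0.22 and -1.76 in H2B, -1.59 and -1.66 in H3, and -1.49 and -1.38 in H4, where the order turned. The shorter H1 group and the longer H3 group held 1 gene each, and the longer H2A group held 2. Mean counts per kilobase of annotated exon were 4562 in KO, 8448 in CARM1i and 11891 in WT for Hist1h4h, and 11.8 in KO, 11.7 in CARM1i and 10.0 in WT for Hist1h2br, the ends of the range in WT. These values do not rank the genes by expression, because the polyadenylated share of each is unknown, annotated lengths run from 312 to 7425 bases, and copies share sequence.

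Genes that transcribe the histone genes and process their messages were a separate list. Of 20 listed, 18 were tested and 9 were lower, 1 higher and 8 not called in KO, with a median of -0.11, against 20.5% of all genes lower and 21.4% higher. In CARM1i 5 were lower and 13 were not called, against 8.59% of all genes lower. These 5 became 3 without WT replicate 1, without the intensity trend or at an adjusted p of 0.01. Changes in the list ran from -0.72 to 0.26 in KO and from -1.01 to 0.18 in CARM1i against WT. The gene at -1.01 in CARM1i is not among those named below. Slbp, the stem-loop binding protein, had 1979.7, 1907 and 1851 in KO libraries, 2578, 2539 and 2551 in CARM1i libraries and 3009.5, 2847 and 2907 in WT libraries (-0.61 ± 0.04 in KO, limma adjusted p = 4.77e-10, and -0.19 ± 0.04 in CARM1i, adjusted p = 0.00146), with no overlap between groups. Lsm11, a subunit of the U7 particle that cleaves histone pre-mRNA, had 377, 322 and 328 in KO libraries, against 554, 563 and 567 in WT libraries (-0.72 ± 0.08). Casp8ap2, which encodes the FLASH protein of the same cleavage complex, changed by -0.57 ± 0.05 in KO and -0.18 ± 0.05 in CARM1i. Its CARM1i call was lost without WT replicate 1 (adjusted p = 0.0653) and without the intensity trend (adjusted p = 0.0661). Eri1, an exonuclease that trims the histone stem-loop end, changed by -0.65 ± 0.04 in KO and -0.27 ± 0.04 in CARM1i, and Srrt, the ARS2 partner of the cap-binding complex, by -0.35 ± 0.03 and -0.14 ± 0.03. Npat, the coactivator of histone gene transcription in S phase, had 1880.2, 1736 and 1610.2 in KO libraries, 1813, 1762 and 1812 in CARM1i libraries and 1801, 1819.5 and 1754 in WT libraries, with overlapping groups (-0.04 ± 0.05 in KO, adjusted p = 0.52).

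Of 20 histone chaperone and import genes, 17 were lower, 2 higher and 1 not called in KO (median -0.30), against 20.5% of all genes lower and 21.4% higher. In CARM1i 11 were lower, 1 higher and 8 not called (median -0.12), against 8.59% lower and 10.5% higher. The 11 became 7 without CARM1i replicate 1, without WT replicate 1, without the intensity trend or at an adjusted p of 0.01, and the count of higher genes became 2 without WT replicate 3. Hjurp, the chaperone of the centromeric H3 variant, had 1047, 1027 and 1096 in KO libraries, against 2152, 2068 and 2159 in WT libraries (-1.01 ± 0.05, limma adjusted p = 6.73e-12). Chaf1a, the large subunit of the assembly factor that deposits H3 and H4 behind the fork, changed by -0.90 ± 0.06, Nasp, which keeps a reserve of H3 and H4, by -0.82 ± 0.05, and Mcm2, a helicase subunit that also binds histones, by -0.60 ± 0.04. In CARM1i these 4 changed by -0.41, -0.27, -0.33 and -0.15, and all passed.

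Replication-independent histone variant genes supply histones outside S phase as well. Of 11, 8 were lower, 1 higher and 2 not called in KO (median -0.47), against 20.5% of all genes lower and 21.4% higher. In CARM1i 6 were lower and 5 not called (median -0.19), against 8.59% lower. H2afx, the H2A.X gene of DNA break signalling, had 877, 758 and 742 in KO libraries, against 2184, 2079.9 and 1973 in WT libraries (-1.39 ± 0.06, limma adjusted p = 8.96e-12), the largest change of this list. Cenpa, the centromeric H3 variant, changed by -1.08 ± 0.08, H2afy2, a macroH2A gene, by -0.84 ± 0.04 and H2afz, for H2A.Z, by -0.61 ± 0.04. In CARM1i these 4 changed by -0.62, -0.59, -0.26 and -0.25, and all passed.

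S phase genes moved in the same direction as the histone genes. Of 28, 26 were lower and 2 not called in KO, with a median of -0.996, against 20.5% of all genes lower. In CARM1i 22 were lower and 6 not called, with a median of -0.26, against 8.59% lower. Their summed counts were 36156 to 37858 in KO, 56750.2 to 58639 in CARM1i and 66527 to 72203 in WT libraries. Mcm6, of the replicative helicase, had 3115, 3051 and 3061 in KO libraries, against 6777, 6538 and 6165 in WT libraries (-1.08 ± 0.04, limma adjusted p = 1.98e-13). Rrm1 and Rrm2, the subunits of ribonucleotide reductase, changed by -1.10 ± 0.04 and -1.24 ± 0.05, and Uhrf1, which recruits DNA methylation to new DNA, by -1.13 ± 0.04. The lowest S phase gene stood at -1.60 in KO, and the median of the 59 histone genes was -1.76. The part of the S phase genes in the histone result was not tested.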

How the data were processed

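RNA-seq was run on poly(A) RNA from 9 libraries, prepared with a stranded mRNA kit per the labels' protocols. The deposited signal values are read counts per gene that the authors divided by a size factor for each library. Per the submitters' processing notes, the tools were DESeq 1.18.0, HTSeq 0.6.0 and TopHat2 2.0.10, with the mm10 build. For the annotation release and the strand setting, the sources used here give nothing. Dividing by the value of 1 read gave whole reads for 100% of values in every library, within 0.001 read. Gene IDs were matched to GENCODE M21, leaving 15 of 16428 unmatched, and no sample column was left out. Genes with a mean of at least 10 (14560) were tested on log2(value + 1) by limma 3.58.1 (R 4.3.3) with an intensity trend, in one fit of 3 groups, with Benjamini-Hochberg adjustment over all of them. On this scale the fold change of a gene with low counts is understated. The fit was tested on simulated data. Alternatives included count models on the recovered reads (DESeq2 1.42.0, edgeR 4.0.16), and leaving out each library.

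The members and gene lists were chosen with earlier results of these data known. Named genes were, per class, the 4 with the highest mean and those with the extreme KO changes, all genes of clusters 2 to 4, those not lower in KO, and 4 per list plus Slbp, Npat, Casp8ap2 and Lsm11. Genes of the divergent pairs were named for their position, and Hist1h4j after its value was seen. Replicate numbers were not used to pair libraries.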

Additional observations from a re-analysis of the deposited data

How the results depend on the processing

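The 54 genes lower in KO than in WT stayed at 54 under every alternative run. The count of higher genes in KO, 1 (Hist3h2a), became 0 when values were rescaled to a common total, in DESeq2, without the intensity trend, with the replicate block and at an adjusted p of 0.01, and was 0 to 1 when each library was left out. Without KO replicate 2 the 1 was Hist2h2be and without WT replicate 3 it was Hist2h3c2, and Hist3h2a did not pass in either. The genes lower in CARM1i than in WT numbered 52, with 38 without the intensity trend, 44 in DESeq2, 42 at an adjusted p of 0.01 and 43 to 51 with a library left out, lowest without WT replicate 2. The genes higher in CARM1i than in WT were 0 to 1 with a library left out, the 1 being Hist2h3c2 without CARM1i replicate 1. The median change of H4 genes in KO was -1.50 to -1.37 with a library left out, lowest without WT replicate 1. Same-numbered libraries of different groups had correlations of deviations of -0.087 to 0.0268. The replicate block, which was not part of the main fit, left 54 lower genes and 0 higher in KO.

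Directions that turned were all of genes that did not pass. Npat in CARM1i against WT was -0.0125 after rescaling. With a library left out it was -0.01161 to 0.01731 in CARM1i against WT, -0.09939 to 0.0124 in KO against WT and -0.008709 to 0.1031 in CARM1i against KO. Hist2h3c2 in CARM1i against KO was 0.003038 with quantile normalization, 0.0496 in edgeR and 0.04559 in DESeq2, and -0.31 to 0.28 with a library left out. Hist1h2br was -0.29 to 0.27 in CARM1i against KO and -0.05907 to 0.5027 in CARM1i against WT, and Hist3h2a was -0.0241 to 0.2298 in CARM1i against WT. Among values of single genes over all alternatives, 3030 kept direction and side of the threshold, 56 lost the call, 5 gained it and 15 turned. Of the counts of the other gene lists, 483 were within 1.5 times the reported count and 21 were not. The cause was not tested. Poly(A) selection, copies that share sequence and low counts limit single genes.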
